A study of Mus musculus with 61 samples.

Results

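The genes described are those of mouse whose symbol begins with Nduf, the nuclear genes of respiratory complex I and of the factors that build it, in RNA of whole skeletal muscle. The count table of 55011 genes held 53 such rows, of which 4 ended in -ps and were set aside. Of the other 49, 46 had at least 10 counts in at least 30 of the 61 libraries, and each of these 46 in fact reached 10 counts in 61 of 61. Ndufa11b, Ndufb4c and Ndufs6b did so in 0 libraries and are not described further. The 46 comprised 36 subunits of the complex, 8 Ndufaf assembly factors, and Ndufa4 and Ndufa4l2, which carry an Nduf name only.

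Complex I, NADH:ubiquinone oxidoreductase, is the largest enzyme of the respiratory chain. It takes electrons from NADH, passes them along iron-sulfur clusters to ubiquinone, and pumps protons across the inner mitochondrial membrane. Its catalytic core is shared with bacteria and is split between nuclear genes, which encode the arm that reaches into the matrix, and the mitochondrial mt-Nd genes, which encode the proton-pumping membrane arm. The many accessory subunits, all nuclear, surround and stabilise that core, and the Ndufaf proteins act during assembly and are not part of the finished enzyme. Ndufa4 was named as a complex I subunit and is now placed in complex IV, and Ndufa4l2 encodes its hypoxia-induced relative. Muscle fibres use the complex heavily, and endurance training is known for raising mitochondrial content.

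The study asked how exercise changes muscle transcripts and what regulatory T cells (Tregs, marked by Foxp3) contribute. Wild-type C57BL/6J mice gave quadriceps and tibialis anterior from sedentary animals and from animals 1, 2 and 7 days after acute exercise, with 3 libraries per muscle and time. Foxp3DTR+ mice (Foxp3-IRES-GFP.hDTR), in which Foxp3-expressing cells carry the receptor for diphtheria toxin (DT), and Foxp3DTR- mice, all given DT and hence written DTR+ and DTR-, gave quadriceps in 2 experiments. In the acute experiment, sedentary mice gave 2 DTR+ and 3 DTR- libraries, day 1 after exercise 3 of each and day 7 after exercise 2 of each. In the training experiment, sedentary mice and mice trained for 2 weeks gave 3 libraries of each genotype. Trained DTR+ mice on DT also received control IgG or an antibody neutralising interferon-gamma (anti-IFN-gamma), 3 libraries each, from quadriceps. Sedentary C57BL/6JN mice of 24 months received the same antibodies, 2 libraries each, and which muscle was taken is not labelled. The labels do not say whether replicates are separate animals outside the numbered wild-type mice, so p-values measure the spread between these libraries, which may be technical. DTR is expressed from the Foxp3 locus, and no label states how many Tregs were left.

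Libraries held 3359683 to 14445336 counts. Foxp3 had 25 counts in 8 acute DTR- libraries and 2 counts in 7 acute DTR+ libraries, and 4 against 2 counts in the training experiment, so it checks the genotype labels weakly. Summed muscle fibre markers (Acta1, Ckm, Ttn, Mb, Myh4, Myh1, Myh2) summed to 126000 to 231000 CPM (counts relative to the library total) over the groups, and none of these 7 was at 0 throughout a group. Levels are CPM scaled by TMM factors over all 61 libraries. Levels of different genes are compared only after division by exonic length, in CPM per kb. Genes are written as called where edgeR's quasi-likelihood test, Benjamini-Hochberg adjusted over all genes tested, gave an adjusted p under 0.05, and every adjusted p of a gene is from that test unless DESeq2 is named. Fold changes are log2 with their standard error (SE).

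Short transcripts were not equally represented across libraries, and 18 of the 36 subunits had under 1 kb of exonic sequence. Genes under 1 kb other than Nduf and mitochondrially encoded genes took 5.01 to 5.71% of counts in wild-type libraries, 6.05 to 10% in the acute experiment, 5.19 to 7.57% in the training experiment, 5.72 to 6.51% in the trained antibody experiment and 3.13 to 10.3% in the aged mice. Those shares are given beside each result they move with. A second fit removed each library's trend on exonic length and GC content, estimated without Nduf genes. Its values are given for some comparisons and members only. Shares of all genes called come from the fit without removal unless stated. They are not the base for counts of the second fit. Its own share is given only for sedentary DTR+ against DTR- mice of the acute experiment. Its other counts therefore stand without a share of all genes.

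Because most subunits moved together in the acute experiment, the promoters were searched for 3 motifs known from mitochondrial genes. RefSeq promoters (GRCm38.p6, 250 bases before to 50 after the start) matched 40 of the 46 genes by symbol. The NRF1 core GCGCANGCG, on either strand, was in 10 of these 40 (25%) and in 7.03% of all 27025 genes with a promoter. The YY1 core AAGATGGC was in 8 (20%, against 3.19%) and the GABPA core CCGGAAGT in 1, that of Ndufs3 (2.5%, against 4.31%). Any of the 3 was in 18 of 40 (45%, against 13.2%). The 27025 genes were not limited to those expressed in these libraries, whereas the 40 were, so the 2 shares are not alike in this. The NRF1 genes were Ndufa5, Ndufa6, Ndufa8, Ndufa11, Ndufb4, Ndufb10, Ndufs5, Ndufs6, Ndufaf4 and Ndufaf5, which are accessory subunits and assembly factors, and no core subunit of the 5 with a promoter in the table held it. The YY1 genes were Ndufa3, Ndufa9, Ndufb8, Ndufc1, Ndufs4, Ndufs6, Ndufs7 and Ndufaf8, and Ndufs6 held both. Below are 60 bases from upstream of the start of 4 accessory subunits and 1 assembly factor, on the strand of the gene and with every NRF1 match within them in capitals, to show where it lies.
Ndufa8 (chr2:36049339-36049398, minus strand): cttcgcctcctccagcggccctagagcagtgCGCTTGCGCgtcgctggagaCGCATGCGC
Ndufs6 (chr13:73328483-73328542, minus strand): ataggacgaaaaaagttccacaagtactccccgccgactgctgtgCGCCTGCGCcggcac
Ndufb4 (chr16:37654369-37654428, minus strand): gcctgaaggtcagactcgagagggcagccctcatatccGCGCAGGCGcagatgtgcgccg
Ndufa11 (chr17:56717678-56717737, plus strand): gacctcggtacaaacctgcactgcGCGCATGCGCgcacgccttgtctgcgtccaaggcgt
Ndufaf4 (chr4:24897946-24898005, plus strand): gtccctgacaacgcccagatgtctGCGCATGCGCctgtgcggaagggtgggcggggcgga
The nearest match upstream of the annotated start ends directly before it in Ndufa8, where another ends 20 bases before it, 6 bases before it in Ndufs6 and 13 in Ndufb4. It ends 50 bases before the start in Ndufa11 and 103 in Ndufaf4, whose sequences shown end 24 and 77 bases before the start. In both of these the capitals hold 2 overlapping matches, 1 on each strand. The overlap of a match with the other motifs was not examined. A match is a description of these letters and not evidence of binding.

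Ndufb9, an accessory subunit of the distal membrane arm (GRCm38 chr15:58933756-58939488), had the highest level per kb of the 36 in each of the 22 groups, with a median of 876 CPM per kb over libraries. Ndufb10, of the same arm, had 557, Ndufa2 had 497, the core subunit Ndufs7 had 485 and Ndufa1 had 470. At the other end were Ndufab1 with 27.5 and Ndufb2 with 29.7, whose summed exons in the annotation exceed 4 kb, which lowers the value per kb. The assembly factors lay between 11.3 (Ndufaf2) and 34.6 (Ndufaf8) CPM per kb, below 34 of the 36 subunits. Ndufa4 stood above every subunit at 1380 CPM per kb and Ndufa4l2 below every other member at 7.22. The reads of Ndufa12, Ndufs5 and Ndufab1 cannot be separated with certainty from those of their -ps copies, since the treatment of multiply matching reads is not given in the sources used here.

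**Figure D1:**
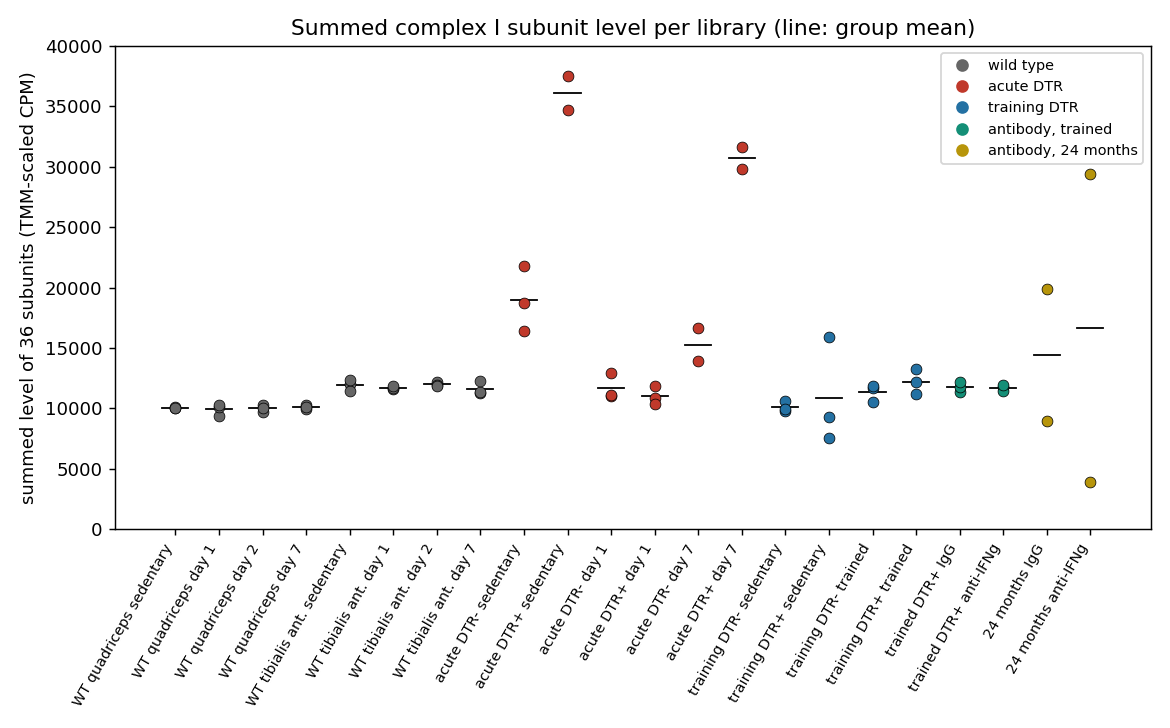
Summed level of the 36 complex I subunits (y axis, TMM-scaled CPM) in each of 61 libraries (points) by group, with group means as lines. The 24 wild-type libraries sit between 9348 and 12347, while sedentary and day 7 DTR+ libraries of the acute experiment reach 29838 to 37485.

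The summed level of the 36 subunits varied most in the acute experiment and in the aged mice. The sum was 10055 ± 60 CPM (SD, n = 3) in sedentary wild-type quadriceps and 11909 ± 471 (n = 3) in sedentary tibialis anterior. In the acute experiment it was 36104 ± 1952 in sedentary DTR+ (n = 2), 18966 ± 2679 in sedentary DTR- (n = 3), 30748 ± 1287 in DTR+ at day 7 (n = 2) and 15276 ± 1913 in DTR- at day 7 (n = 2). At day 1 of that experiment both genotypes were near wild type, at 10997 ± 775 (DTR+) and 11673 ± 1053 (DTR-). The plot of summed levels by library shows that in 3 groups the libraries lie far apart, the sedentary DTR+ group of the training experiment and both groups of aged mice.

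**Figure D2:**
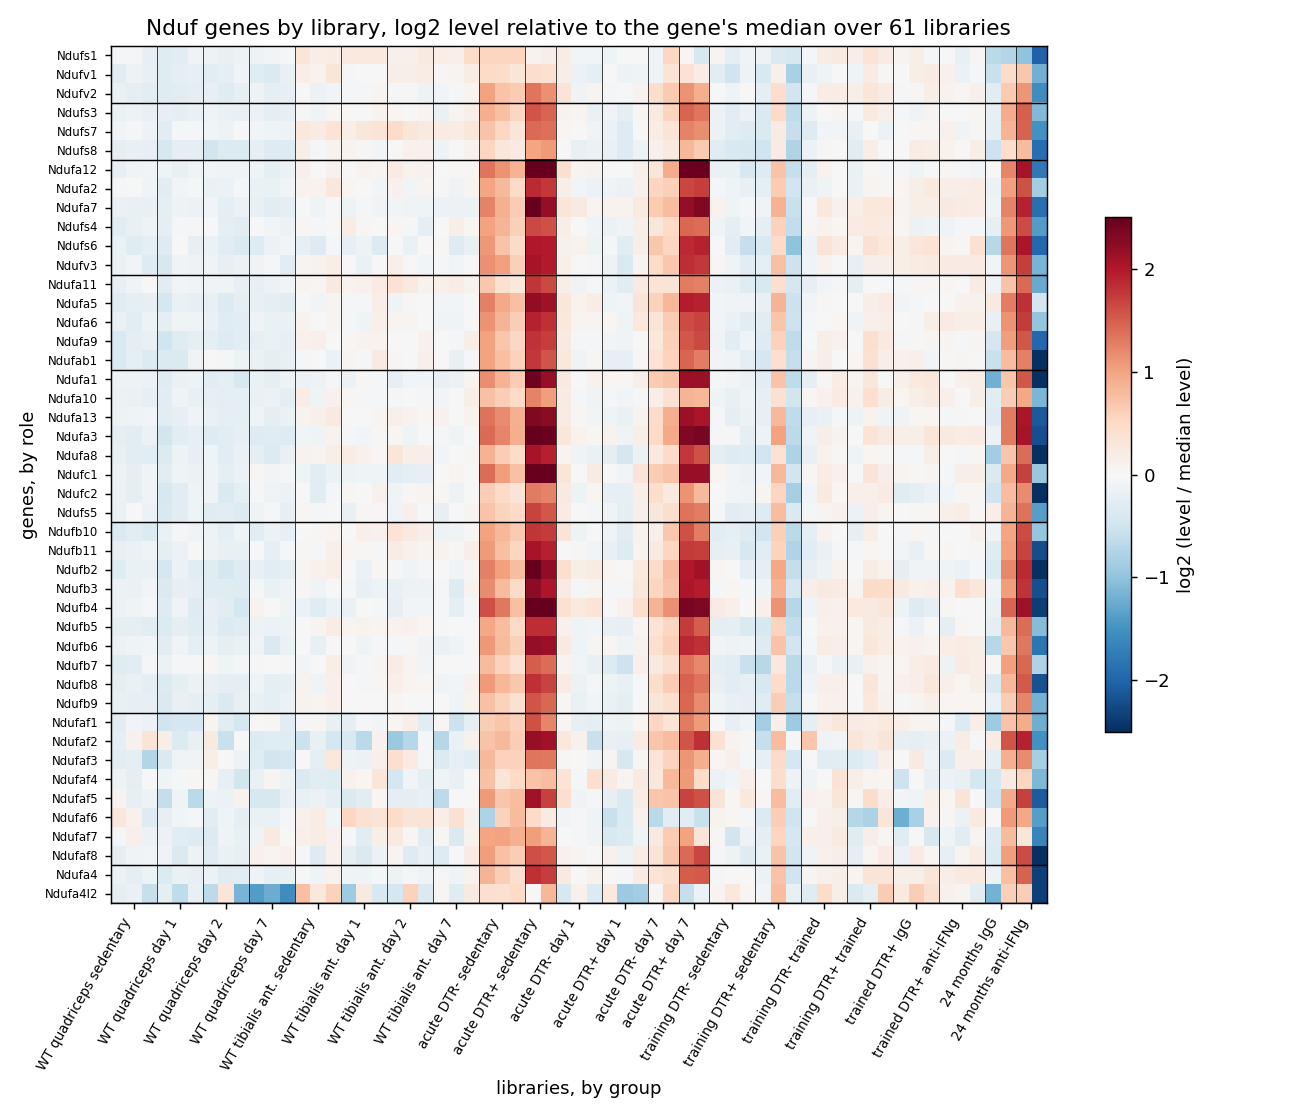
Level of each of 45 Nduf genes (rows, grouped by role) in each of 61 libraries (columns, grouped), as log2 of the level over the gene's median of 61 libraries, with colours capped at the ends of the scale. Most genes are high together in the acute sedentary and day 7 DTR+ libraries, where Ndufs1 is at 412 to 606 CPM and no higher than in the DTR- libraries of rest.

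No Nduf gene of wild-type muscle changed past the threshold after acute exercise. In quadriceps 0 of 46 were called by edgeR at day 1 (2 at an unadjusted p under 0.05), at day 2 (4) and at day 7 (1), where 0.582%, 0.299% and 0.214% of all genes tested were called. In tibialis anterior 0 of 46 were called at day 1 (4 at an unadjusted p under 0.05), day 2 (2) and day 7 (1), against 0.0552%, 0.063% and 0.0158% of all genes. DESeq2 also called 0 in each of these 6 comparisons. The median log2 fold change of the 36 subunits was -0.04, -0.03 and 0.02 in quadriceps and -0.01, 0.01 and -0.04 in tibialis anterior at the 3 times, and the medians of all genes lay between -0.01 and 0.00.

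Ndufv1 encodes the subunit that binds NADH and the flavin. It stood at 591, 656 and 629 CPM in sedentary quadriceps, at 581, 607 and 618 at day 1, and at 577, 553 and 627 at day 7. Ndufs1, which carries several iron-sulfur clusters of the same arm, stood at 525, 530 and 474 CPM in sedentary quadriceps, at 443, 455 and 512 at day 1 and at 499, 518 and 537 at day 7. The groups overlap in both genes. Over the core subunits Ndufv1, Ndufv2, Ndufs1, Ndufs3, Ndufs7 and Ndufs8 the log2 fold changes at these 6 comparisons ran from -0.19 (Ndufv1, tibialis anterior at day 1, adjusted p = 0.486) to 0.07 (Ndufv2, tibialis anterior at day 1, adjusted p = 0.874). Ndufa4 ranged from -0.08 to 0.02. Ndufa4l2 had the largest change of the 46 that missed the threshold, at 5.80, 6.04 and 4.54 CPM in sedentary quadriceps and 2.56, 2.85 and 2.29 at day 7 (log2 -1.08 ± 0.41, adjusted p = 0.483). Those 2 groups did not overlap, as in 7.65% of all genes tested with day 7 below rest, and the levels rest on few counts.

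The 2 muscles differed at rest. Of the 36 subunits 7 were higher in sedentary tibialis anterior than in sedentary quadriceps and 0 lower, where 0.716% of all genes were called higher (3 libraries per muscle in a fit of all 24). Of the 36, 34 had a log2 fold change above 0, with a median of 0.21 against -0.01 for all genes and 0.03 for other genes under 1 kb, and in 27 every tibialis anterior library was above every quadriceps library, as in 8.89% of all genes tested. Ndufv1 stood at 796, 762 and 876 CPM in tibialis anterior against the quadriceps values above (0.36 ± 0.07, adjusted p = 0.00418). Ndufb5, of the distal membrane arm, stood at 441, 462 and 503 against 372, 372 and 363 (0.33 ± 0.06, adjusted p = 0.00465). Ndufs7, a core subunit that holds the last iron-sulfur cluster before the quinone, stood at 569, 548 and 608 against 457, 465 and 434 (0.33 ± 0.08, adjusted p = 0.0174). In these 3 genes every tibialis anterior library exceeded every quadriceps library. Ndufb10 (0.34 ± 0.07), Ndufa8, Ndufa9 and Ndufb9 were the other 4 called.

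Of the assembly factors 0 of 8 were called, with a median of 0.03, and whether they differ from the subunits was not tested. Ndufs1 (0.30 ± 0.08, adjusted p = 0.0505) and the core genes Ndufv2, Ndufs3 and Ndufs8 (0.14 to 0.26) were not called, nor were Ndufa4 (0.16 ± 0.07) and Ndufa4l2 (0.83 ± 0.36, adjusted p = 0.392). Among nuclear genes encoding complexes II to V, 15 of 43 were called higher (median 0.25), and of 7 mt-Nd genes 2. Slow fibre markers summed to 170 to 183 CPM in sedentary tibialis anterior and 659 to 1180 in quadriceps, none of 7 at 0 in either. Endothelial markers summed to 245 to 264 CPM against 175 to 206, and adipocyte markers to 11.7 to 19.2 against 32.6 to 48.9. The part of these markers in the result was not tested. In bulk RNA, fewer cells of a type and less RNA per cell cannot be told apart. The 2 muscles carry the same animal numbers, and with the animal as a block 8 genes were called, the 7 above and Ndufs1 (adjusted p = 0.0257). The count rested on all 6 libraries, as it was 2 without quadriceps replicate 5 or tibialis anterior replicate 7, 3 without quadriceps replicate 7 or tibialis anterior replicate 5, and 4 without either muscle's replicate 6.

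In resting mice of the acute experiment, 39 of 46 Nduf genes were higher in DTR+ than in DTR- muscle and 1 was lower (12.1% of all genes were called higher and 14.5% lower). All 29 accessory subunits were among those called up. The core subunits were not uniform. By part of the enzyme, the median log2 fold change was 1.20 for accessory subunits of the proximal membrane arm, 1.11 for those of the distal membrane arm, 1.11 for those of the NADH-oxidising arm, 0.68 for the 4 core subunits of the quinone-binding arm and -0.05 for the 3 core subunits of the NADH-oxidising arm. All genes tested had a median of -0.06 and other genes under 1 kb one of 0.54. Among subunits the median was 1.15 for those under 1 kb and 0.85 for longer ones.

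Among accessory subunits, Ndufa12 of the NADH-oxidising arm (chr10:94198720-94221443) stood at 1352 and 1194 CPM in the sedentary DTR+ libraries and at 489, 421 and 351 in the DTR- libraries. Ndufa1, a small subunit of the proximal membrane arm encoded on chromosome X, stood at 1062 and 894 against 442, 360 and 304 (1.37 ± 0.14, adjusted p = 1.48e-06). Ndufa8, of the intermembrane space side, stood at 1366 and 1257 against 600, 504 and 449 (1.30 ± 0.14, adjusted p = 2.44e-06). In all 3 the lowest DTR+ library was more than 2 times the highest DTR- library. Ndufb6, of the distal arm, stood at 956 and 923 against 440, 361 and 316 (1.30 ± 0.14, adjusted p = 3.03e-06).

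The core genes of the NADH-oxidising arm stood apart. Ndufs1 (chr1:63143596-63176833) was the 1 gene of the 46 that was called lower, at 584 and 606 CPM in DTR+ and 791, 792 and 794 in DTR- (-0.45 ± 0.16, adjusted p = 0.0465). This call was close to the threshold, and it was lost under DESeq2 (adjusted p = 0.0502), with any 1 of the 5 libraries left out (0.0578 to 0.173) and with the trend on length alone removed (-0.05 ± 0.15). It held with the trend on length and GC content removed (-0.44 ± 0.14, adjusted p = 0.0351). Ndufv1 overlapped, at 973 and 925 against 1016, 980 and 877 CPM (-0.05 ± 0.14, adjusted p = 0.832). Ndufv2, the third core gene of this arm, stood at 1654 and 1434 against 1317, 1069 and 1021 (0.41 ± 0.14, adjusted p = 0.0432). Its call was lost with no filter on low counts (adjusted p = 0.0738), and it turned to -0.13 with the trend on length and GC content removed.

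Core genes of the quinone-binding arm were higher in DTR+ muscle in the fit without trend removal. Those named here have shorter exonic lengths (Ndufs3 1046, Ndufs7 983 and Ndufs8 1291 bases) than Ndufs1 (2819), Ndufv1 (1774) and Ndufv2 (1794). The part of length in the difference between the arms was not tested. Ndufs7 stood at 1266 and 1241 CPM against 780, 678 and 586 (0.84 ± 0.13, adjusted p = 9.67e-05). Ndufs3 stood at 868 and 806 against 550, 492 and 428 (0.73 ± 0.14, adjusted p = 0.000635). Ndufs8, an iron-sulfur subunit, stood at 595 and 629 against 440, 367 and 350 (0.63 ± 0.14, adjusted p = 0.00171). In these 3 genes both DTR+ libraries exceeded every DTR- library.

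Of the 8 assembly factors 5 were called higher (median 0.68). Ndufaf2, a relative of Ndufa12 that acts late in assembly, stood at 35.0 and 33.1 CPM against 12.5, 13.4 and 11.8 (1.40 ± 0.26, adjusted p = 0.000478). Ndufaf5, which hydroxylates Ndufs7 during assembly, stood at 167 and 126 against 80.6, 62.7 and 66.5 (1.03 ± 0.19, adjusted p = 0.000543). Ndufaf4 (0.17 ± 0.20), Ndufaf6 (-0.04 ± 0.32) and Ndufaf7 (-0.06 ± 0.20) were not called. Of 12 assembly factors without the Ndufaf name 1 was called higher and 3 lower (median 0.04). Ndufa4 stood at 3051 and 2864 against 1556, 1331 and 1137 (1.10 ± 0.13, adjusted p = 5.86e-06), while Ndufa4l2 was at 6.74 and 12.1 against 8.96, 8.77 and 9.50 (0.01 ± 0.40).

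The rest of the chain moved alongside. Among 43 nuclear genes encoding complexes II to V, 31 were called higher and 3 lower (median 0.89), and of the 7 mt-Nd genes 4 were called higher (median 1.31). Of 75 cytosolic ribosome genes, another family of short transcripts, 33 were called higher and 0 lower (median 0.48). Of 9 regulators of mitochondrial genes such as Ppargc1a, none of them under 1 kb, 2 were called higher and 3 lower (median -0.60). The ratio of summed subunits to summed genes of complexes II to V was 0.584 and 0.572 in DTR+ and 0.468 to 0.498 in DTR- libraries.

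Library content differed between the same 2 groups. Genes under 1 kb took 10 and 9.73% of counts in the sedentary DTR+ libraries and 7.93, 7.33 and 7.09% in the DTR- libraries. Mitochondrially encoded genes took 23.5 and 21.4% against 12, 9.37 and 7.89%. Summed Schwann cell markers were 17.1 to 23.8 CPM against 46.5 to 65.4, macrophage markers 300 to 358 against 232 to 332, endothelial markers 105 to 107 against 95.1 to 146 and T and NK cell markers 8.01 to 12.8 against 5.45 to 7.51, with 5 of the 7 T and NK markers at 0 in both DTR+ libraries. Muscle fibre markers were 201000 to 214000 against 186000 to 207000. Within that sum Ckm was lower in DTR+, at 12400 and 14700 CPM against 39400, 39100 and 43900. Myh4 was higher, at 49200 and 49500 against 29400, 27300 and 25700. Higher too were Myh1, Myh2, Mb and Ttn, and Acta1 overlapped. The part of these differences in the result was not tested, beyond the fit with the trend removed.

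**Figure D3:**
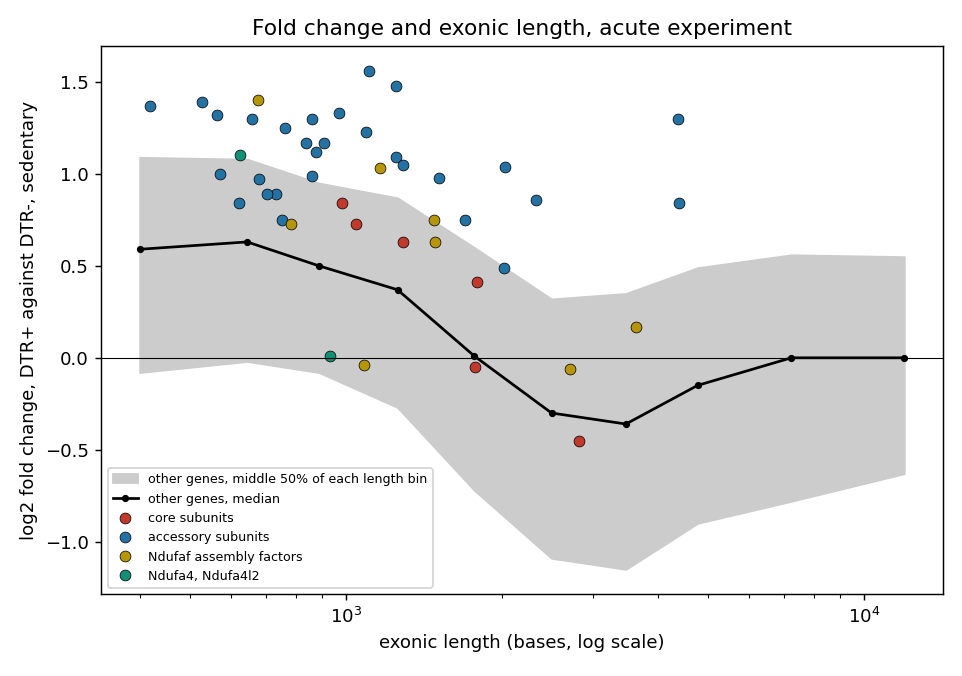
Log2 fold change of sedentary DTR+ against DTR- muscle (y axis) by exonic length (x axis, log scale) in the acute experiment. Grey gives the middle 50% and black the median of other genes per length bin, from 0.59 under 500 bases to -0.36 at 3 to 4 kb, while the subunits have a median of 1.15 under 1 kb and 0.85 at longer lengths.

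Fold changes in this comparison declined with transcript length across all genes. Other genes had a median log2 fold change of 0.59 under 500 bases, 0.50 at 750 to 1000 bases, 0.01 at 1500 to 2000 bases and -0.36 at 3000 to 4000 bases. The plot of fold change by exonic length places Ndufs1, with 2819 bases of exon, in the range where other genes were lower too. After removal of the trend on length and GC content, 24 of 36 subunits were called higher and 1 lower, with a median of 0.48, while other genes under 1 kb then had a median of -0.11, and 9.47% of all genes were called higher and 9% lower. Of the 8 assembly factors 1 was called, Ndufaf3 (0.80 ± 0.17, adjusted p = 0.00307).

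The members did not share this correction equally. Ndufv3, an accessory subunit of the NADH-oxidising arm, was at 1.60 ± 0.15 with the trend removed and at 1.04 ± 0.16 without removal. Ndufa13 (1.27 ± 0.15), Ndufa11 (1.23 ± 0.14), Ndufb2 (1.15 ± 0.15), Ndufa12 (1.01 ± 0.14) and Ndufa8 (0.88 ± 0.12) were also still called. Ndufb2 and Ndufab1 entered this fit with 4375 and 4387 bases, the union of their annotated exons. Their values and calls with the trend removed rest on those lengths, here and in the other comparisons. Ndufa1 (0.27 ± 0.12, adjusted p = 0.119) and Ndufb6 (0.27 ± 0.12, adjusted p = 0.127) were no longer called, and Ndufa4 turned to -0.17 ± 0.10. Under TMM factors taken from genes under 1 kb alone, a scaling that moved the median of all genes to -0.71, 20 members were called higher and 3 lower, and the subunit median was 0.34.

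**Figure D4:**
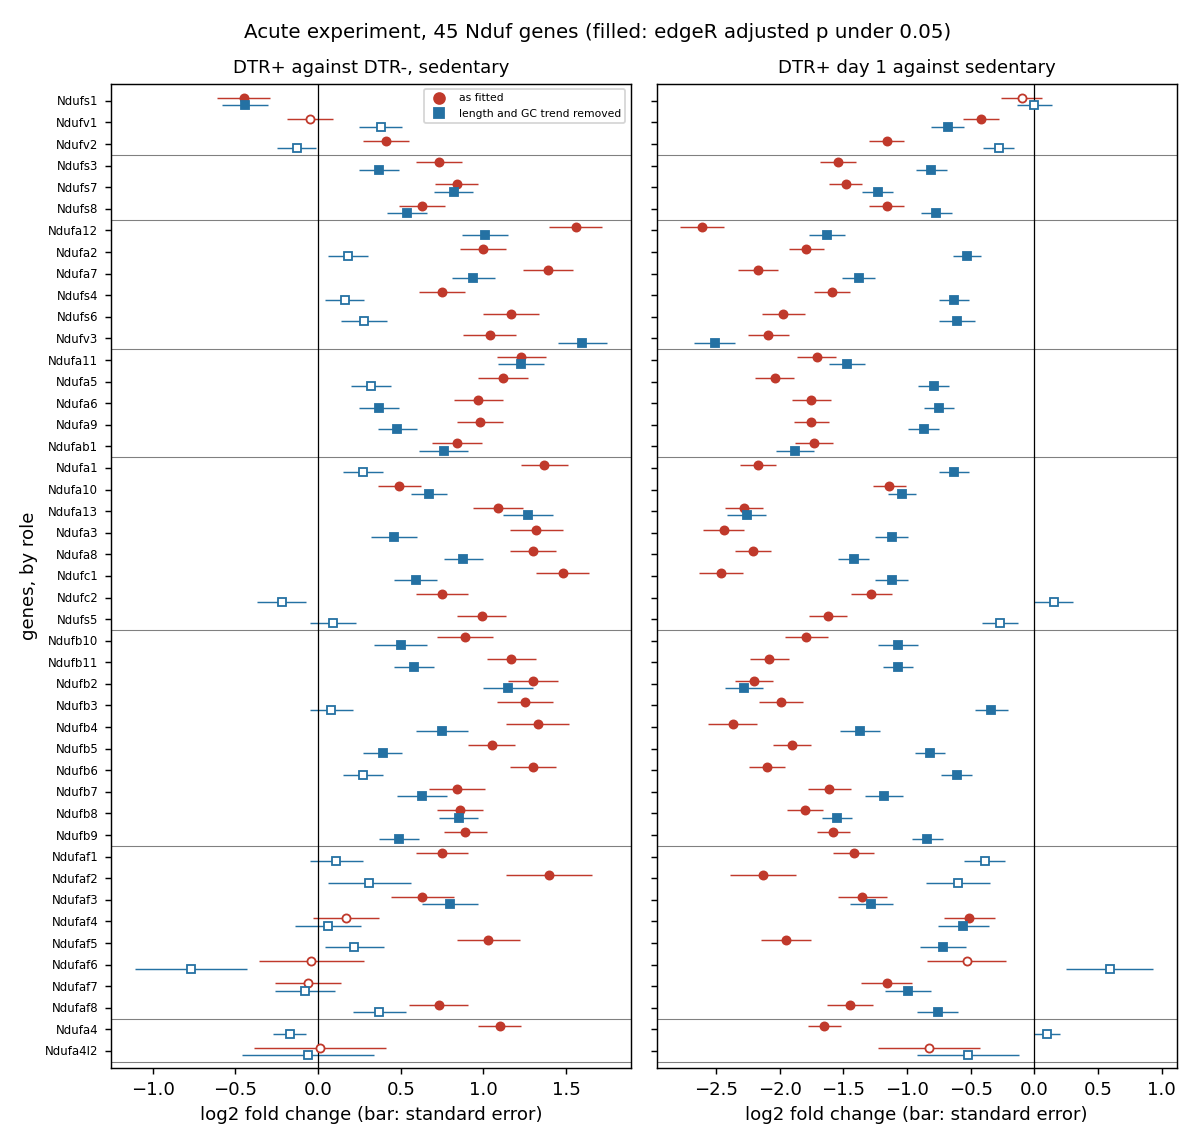
Log2 fold change with standard error of each of 45 Nduf genes, grouped by role, for sedentary DTR+ against DTR- (left) and DTR+ at day 1 against sedentary (right), as fitted (circles) and with the trend on length and GC content removed (squares), filled where called. Removal brings 36 of 45 genes nearer to 0 on the left and 39 of 45 on the right, where 31 of the subunits drawn are called below 0.

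At day 1 after exercise the 2 genotypes could not be distinguished in these genes. Of 46 members 0 were called by edgeR and 0 by DESeq2 (0 at an unadjusted p under 0.05), where 0% of all genes were called. The median log2 fold change of the subunits was -0.09 (3 DTR+ against 3 DTR- libraries), and all 36 subunits overlapped between the genotypes. All subunits were below 0 except 1 of the 10 of the distal membrane arm, which was at 0.00. Ndufs1 stood at 508, 546 and 540 CPM against 618, 518 and 521, and Ndufa12 at 193, 196 and 210 against 254, 204 and 204. The log2 fold changes of the core subunits named above lay between -0.14 and -0.01 with standard errors of 0.12 to 0.15. Ndufa4 was at -0.05 ± 0.12 and Ndufa4l2 at -0.21 ± 0.36.

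At day 7 the genotypes differed again, in libraries other than those of the sedentary comparison. Of 46 members 38 were called higher and 0 lower in DTR+ muscle (11.3% of all genes higher, 14% lower; 2 libraries per genotype), with a subunit median of 1.07 against -0.10 for all genes and 0.46 for other genes under 1 kb. Ndufa12 stood at 1064 and 1076 CPM against 239 and 369 (1.74 ± 0.19, adjusted p = 2.7e-06). Ndufa3, of the proximal membrane arm, stood at 1077 and 1121 against 304 and 417 (1.53 ± 0.18, adjusted p = 5.34e-06). Ndufa1 (1.37 ± 0.16) and Ndufa7 (1.47 ± 0.18) followed. With the trend on length and GC content removed, Ndufa1 was no longer called (0.34 ± 0.13, adjusted p = 0.083). Still called were Ndufa12 (1.13 ± 0.16), Ndufa7 (1.05 ± 0.15) and Ndufa3 (0.68 ± 0.15). Both DTR+ libraries exceeded both DTR- libraries in 34 of 36 subunits and in 27.5% of all genes tested.

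Core genes of the 2 arms were again unlike at day 7 in the fit without trend removal. Ndufs1 stood at 568 and 412 CPM against 511 and 781 and was not called (-0.48 ± 0.18, adjusted p = 0.0566). Ndufv1 (0.05 ± 0.16) and Ndufv2 (0.39 ± 0.16, adjusted p = 0.0799) were not called either. Ndufs3 (0.91 ± 0.16), Ndufs7 (0.86 ± 0.15) and Ndufs8 (0.49 ± 0.15) were called higher, as were 4 of 8 assembly factors, led by Ndufaf8 (0.96 ± 0.20, adjusted p = 0.00118) and Ndufaf5 (0.85 ± 0.22, adjusted p = 0.00689). Ndufa4 was higher (1.05 ± 0.15) and Ndufa4l2 not called (-0.73 ± 0.46). With the trend on length alone removed, Ndufs3 was still called (0.39 ± 0.14, adjusted p = 0.0475). Ndufs7 (0.31 ± 0.13), Ndufs8 (0.11 ± 0.13), Ndufv2 (0.32 ± 0.15), Ndufv1 (-0.03 ± 0.14) and Ndufs1 (-0.15 ± 0.16) were not. Ndufa4l2 was called lower in that fit (-1.31 ± 0.46, adjusted p = 0.0485). Genes under 1 kb took 9.43 and 9.42% of counts in the DTR+ libraries and 7.28 and 6.85% in the DTR- libraries, and mitochondrially encoded genes 20 to 21.8% in DTR+ and 8.7 to 8.92% in DTR- libraries. Muscle fibre markers summed to 191000 to 206000 CPM against 169000 to 177000 and Schwann cell markers to 15.3 to 23.5 against 39.9 to 52.9. Of the fibre markers Ckm was lower in DTR+ (15400 and 13100 against 35500 and 38700). Acta1 (129000 and 123000 against 89700 and 98200), Myh4 and Myh1 were higher, and Ttn, Mb and Myh2 overlapped. Summed T and NK cell markers were 25.4 to 78.7 CPM against 4.20 to 7.28 and macrophage markers 399 to 721 against 226 to 252, and their part was not tested. After removal of both trends 23 subunits were called higher and 1 lower (median 0.50).

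Within a genotype, day 1 stood below rest. In DTR- muscle 41 of 46 members were lower at day 1 than in sedentary mice and 0 higher, where 8.24% of all genes were called lower (3 libraries each). In all 36 subunits, and in 17.1% of all genes tested, every day 1 library was below every sedentary library, and 35 were called, the exception being Ndufc2 (-0.40 ± 0.15, adjusted p = 0.066). The subunit median was -0.73, against 0.09 for all genes and -0.25 for other genes under 1 kb. Ndufa13, an accessory subunit of the proximal arm, stood at 532, 469 and 441 CPM at day 1 against 1172, 1046 and 853 at rest (-1.07 ± 0.14, adjusted p = 4.36e-05). Ndufa3 stood at 265, 230 and 221 against 581, 505 and 406 (-1.04 ± 0.14, adjusted p = 0.000106). Ndufb8 (-0.83 ± 0.13) and Ndufv3 (-0.88 ± 0.14) fell as well.

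Here core subunits were called lower along with the accessory ones. Ndufs3 was at -0.72 ± 0.13 (adjusted p = 0.000877), Ndufs1 at -0.50 ± 0.15, Ndufv1 at -0.47 ± 0.13 and Ndufs8 at -0.44 ± 0.12 (adjusted p = 0.019). Of the assembly factors 5 fell, among them Ndufaf7 (-0.99 ± 0.18, adjusted p = 0.000857), at 31.4, 30.6 and 29.6 CPM against 62.3, 63.0 and 58.1, and Ndufaf1 (-0.74 ± 0.15, adjusted p = 0.0019). Ndufa4 fell (-0.50 ± 0.12), and Ndufa4l2 was not called (-0.60 ± 0.35). Of 43 genes of complexes II to V 33 fell and of 7 mt-Nd genes 4, while of the ribosome genes 12 rose and 6 fell. The share of genes under 1 kb was 6.2 to 6.68% at day 1 and 7.09 to 7.93% at rest. Mitochondrially encoded genes took 5.44 to 6.56% against 7.89 to 12%, and 21211 to 26596 genes were detected at day 1 against 16508 to 16799. Muscle fibre markers summed to 131000 to 146000 CPM at day 1 and 186000 to 207000 at rest. Of these, Acta1 (68600, 65400 and 60100 against 129000, 114000 and 108000) and Myh4 were lower at day 1. Ttn was higher (13900, 14200 and 16900 against 5490, 5360 and 5580), as were Mb and Myh2, while Ckm and Myh1 overlapped. The part of these markers in the result was not tested. After removal of the length and GC trends 26 subunits were called lower (median -0.40), and without the 4 sedentary and day 7 DTR+ libraries in the fit 43 members were.

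In DTR+ muscle the same step was larger. Of 46 members 43 were lower at day 1 (3 libraries) than at rest (2 libraries) and 0 higher, where 18.1% of all genes were called lower, with a subunit median of -1.79 against 0.28 for all genes and -0.77 for other genes under 1 kb. In all 36 subunits, and in 26.9% of all genes tested, every day 1 library was below both sedentary libraries. Ndufa12 stood at 193, 196 and 210 CPM at day 1 against 1352 and 1194 (-2.61 ± 0.17, adjusted p = 7.72e-10). Ndufa3 stood at 232, 205 and 240 against 1364 and 1181 (-2.44 ± 0.16, adjusted p = 7.72e-10). Ndufa8 (-2.21 ± 0.14) and Ndufa13 (-2.28 ± 0.15) fell to a like degree.

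Library content moved with this step as well. Genes under 1 kb took 6.05 to 6.78% of counts at day 1 and 9.73 to 10% at rest, and mitochondrially encoded genes 5.53 to 6.31% against 21.4 to 23.5%. At day 1 23450 to 26524 genes were detected, against 14701 to 14745 at rest. Fibro-adipogenic progenitor markers summed to 749 to 915 CPM against 1570 to 1780 and Schwann cell markers to 39.6 to 58.6 against 17.1 to 23.8. Muscle fibre markers summed to 136000 to 155000 CPM against 201000 to 214000, but did not move together. Acta1 stood at 64100, 60000 and 68400 CPM at day 1 against 128000 and 138000, and Myh4, Myh1 and Mb were lower too. Ckm was higher, at 38800, 35000 and 35400 against 12400 and 14700. Ttn was higher as well (16300, 16100 and 18400 against 5930 and 5660), and Myh2 overlapped. The part of these differences in the result was not tested.

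Ndufs1 was not called (-0.10 ± 0.16, adjusted p = 0.64). Among the subunits called, Ndufv1 fell least (-0.42 ± 0.14, adjusted p = 0.0225), and Ndufv2, Ndufs3, Ndufs7 and Ndufs8 fell by 1.16, 1.54, 1.48 and 1.16 on the log2 scale. Of 8 assembly factors 7 fell, led by Ndufaf5 (-1.95 ± 0.20) and Ndufaf1 (-1.42 ± 0.16), and Ndufa4 fell too (-1.65 ± 0.13), while Ndufa4l2 was not called (-0.83 ± 0.40, adjusted p = 0.103). The length and GC trends being removed, 32 subunits were called lower (median -0.86), and Ndufa4 was then at 0.10. With TMM factors from genes under 1 kb, which moved the median of all genes to 1.26, Ndufs1 (0.88) and Ndufv1 (0.57) were above 0.

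The test of whether the day 1 response differed between genotypes called 37 of 46 members, all in the direction of a larger fall in DTR+ muscle (6.54% of all genes were called in that direction), with a subunit median of -1.09 and -0.57 for other genes under 1 kb. The accessory genes Ndufa8 (-1.51 ± 0.19, adjusted p = 3.79e-05), Ndufa12 (-1.70 ± 0.22, adjusted p = 5.05e-05), Ndufa1 (-1.40 ± 0.19) and Ndufc1 (-1.56 ± 0.22) had the smallest p. Among core genes Ndufs3 (-0.82 ± 0.19), Ndufs7 (-0.98 ± 0.18) and Ndufs8 (-0.73 ± 0.18) were called, and Ndufs1 (0.40 ± 0.22), Ndufv1 (0.05 ± 0.19) and Ndufv2 (-0.50 ± 0.20) were not. Among assembly factors Ndufaf5 (-1.24 ± 0.27) and Ndufaf2 (-1.43 ± 0.36) had the smallest p of 4 called. Ndufa4 was called (-1.15 ± 0.18) and Ndufa4l2 was not (-0.23 ± 0.54). When the length and GC trends were removed 17 subunits were called (median -0.51). This test and both comparisons with rest share the sedentary libraries, and at day 1 the genotypes overlapped.

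Between rest and day 7 no member changed past the threshold within a genotype. In DTR- muscle 0 of 46 were called by edgeR or DESeq2 (13 at an unadjusted p under 0.05; 0.00702% of all genes were called), with all 36 subunits below 0 and a median of -0.27. In DTR+ muscle 0 of 46 were called by either tool (5 at an unadjusted p under 0.05; 1.01% of all genes), with all 36 below 0 and a median of -0.23, and in 34, as in 17.5% of all genes tested, both day 7 libraries were below both sedentary libraries. The day 7 responses of the genotypes did not differ in any member past the threshold (0 called by either tool, 0 at an unadjusted p under 0.05; 0.0772% of all genes), with a median of 0.03. Core log2 fold changes at day 7 ran from -0.30 (Ndufs3) to -0.14 (Ndufs8) in DTR- and from -0.29 (Ndufs1) to -0.12 (Ndufs3) in DTR+ muscle.

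**Figure D5:**
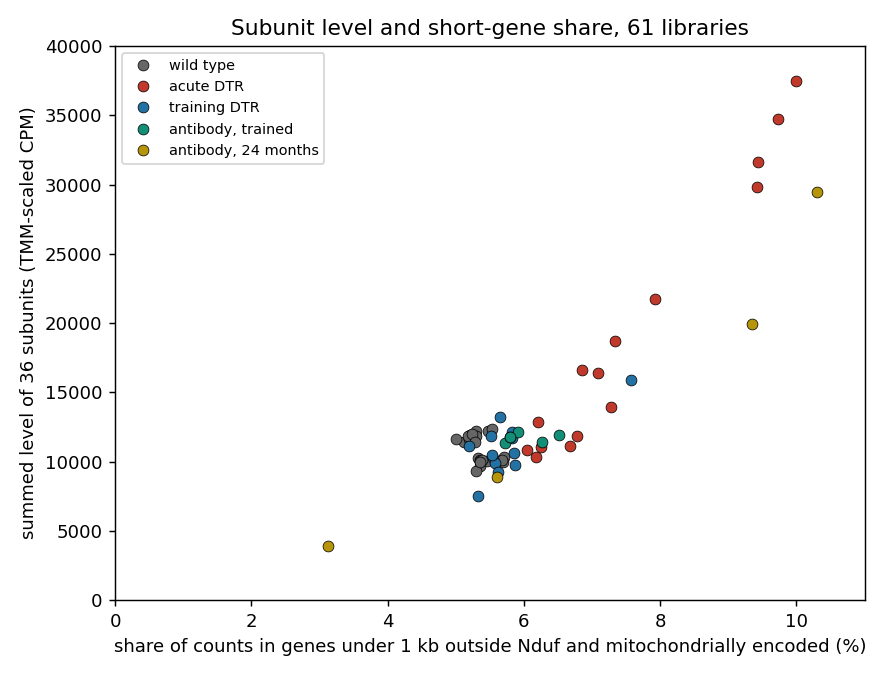
Summed level of 36 complex I subunits (y axis, TMM-scaled CPM) against the share of counts in other genes under 1 kb (x axis, percent) in 61 libraries, coloured by experiment. Libraries with shares above 9% hold 19915 to 37485, and the aged library with 3.13% holds 3892.

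Over libraries of all experiments, high subunit sums went with high shares of short genes, as the plot of summed level against short-gene share shows. The 6 libraries with a share above 9% were the 4 DTR+ libraries of sedentary and day 7 mice in the acute experiment and 2 aged libraries, 1 of each antibody. Within the 24 wild-type libraries the 2 measures did not run together, since tibialis anterior had the higher sums (11297 to 12347, quadriceps 9348 to 10313) and shares of 5.01 to 5.53% (quadriceps 5.3 to 5.71%).

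Training for 2 weeks gave no called Nduf gene in either genotype with all libraries in the fit and no trend removed. In DTR- muscle 0 of 46 were called by edgeR or DESeq2 (0 at an unadjusted p under 0.05; 0.103% of all genes were called), although 34 of 36 subunits were higher, with a median of 0.18 against 0.01 for all genes and 0.05 for other genes under 1 kb. In 16 subunits, and in 7.78% of all genes tested, every trained library was above every sedentary one. Ndufb5 stood at 443, 478 and 479 CPM in trained and 376, 378 and 343 in sedentary DTR- mice (0.36 ± 0.22, adjusted p = 0.999). The core subunits named above ran from 0.10 (Ndufs7) to 0.31 (Ndufs8). Ndufa4 was at 0.13 ± 0.22 and Ndufa4l2 at 0.00 ± 0.36. Summed endothelial markers were 266 to 279 CPM in trained and 184 to 192 in sedentary DTR- mice. Macrophage markers summed to 250 to 322 against 172 to 198. Fast fibre markers summed to 92900 to 105000 against 123000 to 134000 and all fibre markers to 129000 to 139000 against 147000 to 154000. Within the last sum Myh4 (22300, 17200 and 21100 against 28000, 30800 and 31300) and Ckm were lower. Myh1 was higher (7630, 5760 and 5350 against 2390, 2570 and 2740), as were Myh2 and Mb, while Acta1 and Ttn overlapped. The part of these markers in the result was not tested.

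In DTR+ muscle 0 of 46 were called by edgeR and 1 by DESeq2 (2 at an unadjusted p under 0.05; 2.21% of all genes), with 23 of 36 subunits higher and a median of 0.07. Ndufs1 stood at 614, 688 and 632 CPM in trained and 500, 425 and 411 in sedentary mice (0.50 ± 0.15, adjusted p = 0.102). It was the 1 subunit of 36 without overlap. Of all genes tested, 9.23% had every trained library above every sedentary one and 6.39% every one below. With the trend on length and GC content removed, some members were called higher by edgeR. They were Ndufs1 (0.43 ± 0.12, adjusted p = 0.0489), Ndufb7 (0.47 ± 0.13, adjusted p = 0.0489) and Ndufaf1 (0.63 ± 0.17, adjusted p = 0.0495). Removal of the trend on length alone left Ndufs1 and Ndufaf1 called (adjusted p = 0.0345 for each). The libraries of the sedentary DTR+ group lay far apart, replicate 2 on the high side and replicate 3 on the low side. The subunit sum was 15872 CPM in replicate 2, 9277 in replicate 1 and 7503 in replicate 3, which is below every other library of the experiment and also had the fewest counts of all 61 libraries (3359683). In replicate 2 the share of genes under 1 kb was 7.57%, against 5.19 to 5.87% in the other 11 libraries of the experiment, and 17342 genes were detected. Ttn, the titin gene with a very long transcript, stood at 28900, 9180 and 44200 CPM in replicates 1, 2 and 3. Ndufb5, for example, stood at 336, 652 and 288 CPM in sedentary and 460, 520 and 505 in trained DTR+ mice, so that replicate 2 alone exceeded the trained libraries.

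Without replicate 2, a choice made after its values were seen, 19 of 36 subunits were called higher in trained DTR+ muscle and 36 of 36 were higher, with a median of 0.53 against 0.00 for all genes and 0.23 for other genes under 1 kb (2.92% of all genes were then called higher). In all 21 of 46 members were called, of which Ndufaf1 (1.04 ± 0.18, adjusted p = 0.00296), Ndufb5 (0.63 ± 0.13, adjusted p = 0.00716), Ndufb8 (0.63 ± 0.14, adjusted p = 0.0108) and Ndufab1 (0.67 ± 0.15, adjusted p = 0.0114) had the smallest p. Ndufaf1, a chaperone of the early membrane arm, stood at 26.6 and 25.9 CPM in the sedentary libraries kept, at 53.8 in replicate 2 and at 55.1, 54.1 and 56.4 in trained mice. Of the core subunits 5 of 7 were called and of genes of complexes II to V 32 of 43. When both trends were removed as well, 8 subunits and Ndufaf1 were called and the median was 0.29. These calls set the trained libraries against replicates 1 and 3 alone, the latter being the low one. Without replicate 3 in place of replicate 2, 0 members were called and the median was -0.14.

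The genotypes did not differ in any Nduf gene past the threshold in this experiment. At rest 0 of 46 were called by edgeR or DESeq2 (0 at an unadjusted p under 0.05; 0.0477% of all genes), with a subunit median of 0.18, equal to that of other genes under 1 kb, and all 36 overlapped. Without replicate 2 of sedentary DTR+ that median turned to -0.25. After training 0 of 46 were called by either tool (0 at an unadjusted p under 0.05; 0.89% of all genes), with 33 of 36 subunits higher in DTR+ and a median of 0.09. The difference of the training response between genotypes gave 0 calls by either tool (0 at an unadjusted p under 0.05; 0.27% of all genes), with a median of -0.10, and of 0.34 without that replicate. In the core subunits named above, log2 fold changes between genotypes ran from -0.19 (Ndufs1) to 0.14 (Ndufs3) at rest. After training they ran from -0.01 (Ndufs8) to 0.13 (Ndufv1).

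The sedentary DTR+ and DTR- mice of the acute and of the training experiment carry the same labels apart from the experiment, and the difference between genotypes was 1.00 in median in one and 0.18 in the other. A test of the difference between these differences, added after the data were seen and fitted on the 11 sedentary libraries, called 1 of 46 members, Ndufa8 (0.981% of all genes were called in that direction), with a subunit median of 0.82 and 27 members at an unadjusted p under 0.05. DESeq2 called 12. Without replicate 2 of the training experiment's sedentary DTR+ group 39 members were called (median 1.26). The count was 2 without replicate 1 of the acute sedentary DTR- group, 1 without replicate 3 of the training experiment's sedentary DTR+ group, and 0 without any other 1 of the 11 libraries.

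No member differed past the threshold between trained DTR+ mice given anti-IFN-gamma and IgG. Of 46 members 0 were called by edgeR or DESeq2 (3 at an unadjusted p under 0.05; 1.35% of all genes were called), with 26 of 36 subunits higher and a median of 0.03. Subunit sums were 11374, 11783 and 12137 CPM with IgG and 11761, 11442 and 11926 with anti-IFN-gamma. Core log2 fold changes ran from -0.12 ± 0.09 (Ndufv1) to 0.06 (Ndufv2 and Ndufs3), Ndufa4 was at 0.03 ± 0.08, and Ndufa4l2 stood at 8.02, 10.3 and 8.87 CPM against 7.26, 7.08 and 5.54 (-0.43 ± 0.24, adjusted p = 0.604). Without IgG replicate 3, 1 gene was called.

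In the aged mice the libraries of 1 group differed more than the groups. Subunit sums were 8913 and 19915 CPM with IgG and 29429 and 3892 with anti-IFN-gamma, and the shares of genes under 1 kb in the same order 5.6, 9.35, 10.3 and 3.13%. Ndufa1 stood at 85.2 and 318 against 578 and 10.6 CPM, so the treated pair enclosed both IgG libraries. Of 46 members 0 were called by edgeR or DESeq2 (0 at an unadjusted p under 0.05; 0% of all genes), with a median of 0.23. Their standard errors in the core subunits named above were 1.01 to 1.27, so a difference of a log2 unit was not detectable here.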

How the data were processed

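RNA of whole muscle was measured in 61 libraries. Muscle was frozen, RNA was extracted with TRIzol and 2 ng per library were used, per the labels' protocols, in an ultra-low-input protocol. Per the submitters' processing notes, the authors used mm10, STAR 2.7.3a and featureCounts (version not given in the sources used here) and deposited whole-number counts per gene. No source used here gives strand, annotation or the treatment of multiply matching reads, so antisense and overlapping genes cannot be told apart. No per-sample column was left unused (0).

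Fits used edgeR 4.0.16 (R 4.3.3), 1 per experiment, on group means, with filterByExpr (minimum count 10, minimum total 15), TMM factors and quasi-likelihood F tests. The muscles were compared in a fit of all 24 wild-type libraries. SE is the absolute fold change over the square root of F. Exonic length (union of exons) and coordinates came from GENCODE vM21 for GRCm38, matching 52936 rows. Trends on length and GC content were removed with spline offsets (5 degrees of freedom). The steps were tested on simulated counts. Alternatives were DESeq2 1.42.0, no filter, only the groups compared, both trends, TMM over genes under 1 kb, library totals, a replicate block and leaving out each replicate. Those with library totals, without the 4 sedentary and day 7 DTR+ libraries, without replicate 2 of sedentary DTR+ together with trend removal, and with crossed pairs were chosen after seeing the data.

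Members, lists and tests were chosen with earlier results of these data known. The naming rule takes the core subunits, Ndufa4 and Ndufa4l2 whatever their p, up to 4 called members with the smallest p per direction, any called member opposite to most, and the 2 Ndufaf genes with the smallest p. One member is not reported here by name, though it is in the counts, medians and sums. Members named to show spread between libraries (Ndufb5 and Ndufaf1 in training, Ndufa1 in aged mice), the cohort comparison and promoter windows were chosen after their values were seen. Quadriceps and tibialis anterior share animal numbers, so the animal pairs them. The 12 pairs' deviations from group means correlated at -0.0329 to 0.0533. The mitochondrial, respiratory chain, ribosome and cell-type lists are described by counts and medians with no set test.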

Additional observations from a re-analysis of the deposited data

Results flagged for a closer look

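The day 1 response to exercise in the acute experiment differed between DTR+ and DTR- mice in 37 of 46 Nduf genes by edgeR's test of the difference (adjusted p under 0.05), each with the larger fall in DTR+ muscle. The share of other genes under 1 kb fell by different amounts in the same libraries, from 9.73 and 10% at rest to 6.05 to 6.78% at day 1 in DTR+ and from 7.09 to 7.93% to 6.2 to 6.68% in DTR-. The test shares its sedentary libraries with the comparison of genotypes at rest, and at day 1 no member was called between genotypes. It is therefore not a result separate from the difference at rest.

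The difference between sedentary DTR+ and DTR- mice was larger in the acute than in the training experiment in 1 of 46 genes, Ndufa8 (log2 1.23, adjusted p = 0.044), by a test of the difference between the experiments, which differ in other ways the labels do not give.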

How the results depend on the processing

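Of 204 recalculated counts of called members with all replicates, 178 stayed within 1.5 times of the count first given, and of 154 that left out 1 replicate 136 did. For tibialis anterior against quadriceps the count was 12 with DESeq2 and 2 with no filter on low counts. For sedentary DTR+ against DTR- it was 26 with the trend on length removed, 26 with the trend on length and GC content removed and 23 with TMM factors over genes under 1 kb, and at day 7 it was 25 (length) and 23 (short-gene TMM). For DTR- at day 1 against rest it was 23 with short-gene TMM. For the difference of the day 1 responses it was 21 (length), 18 (length and GC content) and 18 (short-gene TMM). For trained against sedentary DTR+ mice it was 1 with DESeq2, 2 (length) and 3 (length and GC content). For anti-IFN-gamma it was 1 with no filter, and for the difference between the 2 experiments at rest 12 with DESeq2, 8 with no filter, 9 (length), 8 (length and GC content) and 2 (short-gene TMM).

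Leaving out each replicate in turn gave 2 to 4 called members for tibialis anterior against quadriceps, 35 to 40 for sedentary DTR+ against DTR-, 33 to 35 at day 7, 34 to 43 for DTR- and 41 to 43 for DTR+ at day 1 against rest, 34 to 37 for the difference of these responses, 0 to 21 for trained against sedentary DTR+ mice, 0 to 1 for anti-IFN-gamma and 0 to 39 for the difference between experiments. It gave 0 in all others, where in aged mice the median ran from -2.05 to 1.07.

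The replicate number as a block changed no wild-type call except that of Ndufs1. Outside wild type the numbers are not stated to pair animals, and same-numbered deviations correlated at -0.098 to 0.0422 in the acute, -0.156 to 0.0999 in the training and -0.0466 to 0.0129 in the trained antibody experiment. With the block, counts were 39 and 37 for DTR+ against DTR- at rest and day 7, 40 and 42 for DTR- and DTR+ at day 1 against rest, 35 for the difference of responses, 0 in training and antibody comparisons and 3 for the difference between experiments. With the block and the trend on length and GC content removed they were 22, 22, 19, 36, 16, 0 and 7. In aged mice same numbers correlated at -0.652, and crossing the pairs gave 0 calls, as pairing did.

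Of 1399 fold changes of named genes under other settings, 1205 kept their call or lack of one (50 of them with a change of sign while called in neither), 142 lost and 33 gained a call, and 19 turned while called in at least 1 of the fits. With the trend on length and GC content removed, Ndufv2 was at -0.13 and Ndufa4 at -0.17 in sedentary DTR+ against DTR-, Ndufa4 at -0.21 and Ndufaf5 at -0.00 at day 7, and Ndufa4 at 0.10 in DTR+ at day 1 and 0.16 in the difference of responses. With the block added these were -0.11 and -0.16, -0.19 (Ndufa4), 0.08 and 0.15. With short-gene TMM, Ndufv2 was at -0.25 and Ndufs8 at -0.03 at rest, Ndufv1 at -0.52 and Ndufs8 at -0.08 at day 7, and Ndufv1 at 0.57 and Ndufs1 at 0.88 in DTR+ at day 1, where library totals gave 0.12 for Ndufv1 and 0.44 for Ndufs1. Short-gene TMM moved the median of all genes to -0.71 at rest, -0.67 at day 7, 0.38 in DTR- at day 1 and 0.77 in the difference of responses. The cause of these changes was not tested. Depth limits Ndufa4l2 most, whose level lay between 1.34 and 12.1 CPM over the 61 libraries.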
